A study of Mus musculus with 26 samples.

Results

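The transcripts described here are 10 genes used as markers of Kupffer cells and of macrophages in general in mouse liver: Clec4f, Timd4, Vsig4, Cd5l, Marco, Adgre1, Csf1r, C1qa, C1qb and C1qc. They were chosen by name, as the rows of the combined count table that carry these symbols, out of 54532 genes in that table. Each symbol matched 1 row, every one of the 10 had reads in all 26 libraries, and all 10 passed the filter on low counts that left 14415 genes for testing.

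RNA was counted gene by gene in livers of 26 C57BL/6 mice given benoxacor by oral gavage, once a day on 3 days, with harvest 24 hours after the last dose. Benoxacor is a safener, that is, a compound mixed into herbicides so that the crop tolerates them. The groups were 0 mg/kg (5 mice), 0.5 mg/kg (5 mice), 5 mg/kg (8 mice) and 50 mg/kg (8 mice), 1 library per mouse. All mice shared the same preparation, with acclimatisation between 4 and 8 weeks and bedding passed among cages, and the labels name neither the vehicle of the 0 mg/kg dose nor the sex. Mice carry numbers in 2 series, here called the runs from 601 (601 to 616, with 4, 3, 4 and 4 mice at the rising doses) and from 619 (619 to 632, with 1, 2, 4 and 4 mice). What separates the runs is not in the labels. Inside a run the numbers went up with the dose, so the dose and the order of the numbers cannot be told apart. A mouse is named by its dose and by a replicate number that only follows the order of deposition.

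Kupffer cells are the resident macrophages of the liver. They sit inside the sinusoids, the capillaries between rows of hepatocytes, where they take up particles, microbes and worn red blood cells from portal blood. Most are seeded before birth and renew themselves in place, and they depend on signals through the receptor encoded by Csf1r, whose ligands are the products of Csf1 and Il34. Clec4f, a C-type lectin, is made almost only by Kupffer cells, and Timd4, a receptor for phosphatidylserine on dying cells, marks those of embryonic origin. Vsig4 is a receptor for complement-coated particles, Cd5l a secreted protein that prolongs macrophage survival, and Marco a scavenger receptor for bacteria and dust. Adgre1 encodes F4/80, the general macrophage surface antigen, and C1qa, C1qb and C1qc encode the 3 chains of C1q, which starts the classical complement pathway. The measurements are of whole liver tissue, so fewer macrophages and less RNA per macrophage cannot be told apart.

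Levels are given in CPM, counts scaled to the size of the library, with library sizes corrected by TMM, a method that evens out differences in composition. Library totals ran from 5433074 to 9088626 reads, with a median of 7105531. Clec4f had the highest level of the 10 (81.5 ± 17.6 CPM, SD, n = 26) and Timd4 the lowest (4.36 ± 2.09 CPM). Divided by the length of each gene's merged exons, the order of the mean levels was Clec4f (33.0 CPM per kb), C1qa (29.0), Cd5l (23.7), C1qb (19.2), Vsig4 (11.2), C1qc (10.7), Csf1r (4.75), Adgre1 (2.74), Marco (2.30) and Timd4 (2.01). Neighbours in this order were not always apart. Vsig4 was above C1qc in only 12 of the 26 mice and Marco above Timd4 in 14, whereas C1qc exceeded Csf1r, and Csf1r exceeded Adgre1, in all 26. Marco and Timd4 rest on few reads, with 5 to 95 reads of Marco and 11 to 64 of Timd4 per library. Reads of Csf1r carry another limit, since its exons share 873 bases with Hmgxb3 on the opposite strand and the strand setting of the counting is not given in the sources used here.

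Some libraries stood apart from the rest. Replicates 1 and 2 of the 0.5 mg/kg group held 2310 and 3230 CPM of the acute phase gene Saa1, and no other mouse held more than 655 CPM. Transcripts of steroid-producing cells, led by Star, summed to 1860 CPM in 5 mg/kg replicate 8 and to at most 6.11 CPM elsewhere, and the same library had the highest sums of B cell genes (113 CPM) and of the pan-macrophage and leukocyte list (415 CPM). Replicate 6 at 5 mg/kg stood apart less clearly. It had the highest hepatocyte sum (125000 CPM), with 0.5 mg/kg replicate 2 close to it (117000 CPM). Fold changes and counts by list that moved without these mice are given both ways, beside the value from all mice.

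The genes lie apart in the genome except for the C1q chains. C1qb, C1qc and C1qa follow each other on the minus strand of chromosome 4 between positions 136880129 and 136898803 (mm10, GENCODE M21), a stretch of 18675 bases with gaps of 3616 and 2851 bases and no other annotated gene. Clec4f is on chromosome 6 (83644542 to 83656187), Vsig4 on chromosome X (96247203 to 96293438), Cd5l on chromosome 3 (87357881 to 87371073), Marco on chromosome 1 (120474538 to 120505024), Timd4 on chromosome 11 (46810800 to 46844332) and Adgre1 on chromosome 17 (57358691 to 57483527). Their identifiers are ENSMUSG00000014542 (Clec4f), ENSMUSG00000044206 (Vsig4), ENSMUSG00000015854 (Cd5l), ENSMUSG00000026390 (Marco), ENSMUSG00000055546 (Timd4), ENSMUSG00000004730 (Adgre1), ENSMUSG00000024621 (Csf1r), ENSMUSG00000036887 (C1qa), ENSMUSG00000036905 (C1qb) and ENSMUSG00000036896 (C1qc).

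Promoter windows are shown for 4 members. As described further on, Vsig4 and Timd4 formed one of the closest pairs from mouse to mouse. C1qb and Cd5l represent the C1q chains and the secreted products. The 4 did not all vary together, since C1qb with Timd4 had a Pearson's r of 0.25 and did not pass the test. The windows are the 250 bases before the RefSeq start (GRCm38.p6), at chrX:96293439-96293688 on the minus strand, chr11:46810549-46810798 on the plus strand, chr4:136886201-136886450 on the minus strand and chr3:87357631-87357880 on the plus strand. They are written 5′ to 3′ along the gene. Capitals mark GAGGAA, the core bound by the macrophage factor PU.1, and TGCTGA, the core of sites for MAF factors, each on either strand (TTCCTC and TCAGCA on the other).
Vsig4: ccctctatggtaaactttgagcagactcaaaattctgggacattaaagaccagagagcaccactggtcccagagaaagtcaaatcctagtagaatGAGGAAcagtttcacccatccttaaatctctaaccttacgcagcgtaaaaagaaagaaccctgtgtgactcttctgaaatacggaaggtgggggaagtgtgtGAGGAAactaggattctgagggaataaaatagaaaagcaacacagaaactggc
Timd4: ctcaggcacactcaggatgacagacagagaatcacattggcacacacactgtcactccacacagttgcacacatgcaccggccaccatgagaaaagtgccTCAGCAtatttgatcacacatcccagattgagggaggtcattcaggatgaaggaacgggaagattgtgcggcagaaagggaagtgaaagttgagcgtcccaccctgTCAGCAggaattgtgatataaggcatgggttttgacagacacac
C1qb: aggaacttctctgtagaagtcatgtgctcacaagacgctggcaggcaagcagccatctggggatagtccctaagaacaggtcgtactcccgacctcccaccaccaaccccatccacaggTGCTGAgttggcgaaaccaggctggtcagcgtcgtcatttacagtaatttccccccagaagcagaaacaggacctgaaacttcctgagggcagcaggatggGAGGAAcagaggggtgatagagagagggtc
Cd5l: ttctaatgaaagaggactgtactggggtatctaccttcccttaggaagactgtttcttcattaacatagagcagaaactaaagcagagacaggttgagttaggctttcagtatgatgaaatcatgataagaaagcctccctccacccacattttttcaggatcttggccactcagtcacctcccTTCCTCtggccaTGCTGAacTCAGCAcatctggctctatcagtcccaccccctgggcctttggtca
GAGGAA was found 2 times in the Vsig4 window and TGCTGA 2 times in that of Timd4, while the Vsig4 window had no TGCTGA and the Timd4 window no GAGGAA. The C1qb window held 1 of each, and the Cd5l window 1 GAGGAA and 2 TGCTGA, with no overlap among the marked letters. Over the 7 members with a RefSeq window (none was at hand for Adgre1, Csf1r and C1qa), GAGGAA occurred in 5, TGCTGA in 4, AGGTCA, a core of sites for the receptor LXR, in 3, and the interferon-response motif (GAAA, any 2 bases, GAAA) in 0. Among 32851 windows of the same length, the shares were 23.3%, 16.1%, 14% and 2.98%. A match is a run of letters and not a bound site. Of the 7 windows, those of C1qc and Clec4f had 151 and 71 bases in annotated exons. Bases taken just after the RefSeq start of C1qb were not found in a GENCODE M21 transcript of that gene.

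The first question was whether the marker transcripts changed with the dose. None of the 10 passed the test at any dose. At 50 against 0 mg/kg, 5 of the 10 fold changes were positive and 5 negative, with a median of 0.00 on the log2 scale and a range of -0.21 (Csf1r) to 0.10 (Marco), beside a median of 0.01 over all 14415 genes. This balance moved with single mice. Without 50 mg/kg replicate 1, 8 of the 10 were positive (median 0.12), and without 0.5 mg/kg replicates 1 and 2, 8 were negative (median -0.04). With edgeR's quasi-likelihood test and adjustment by Benjamini-Hochberg over all tested genes, 0 of the 10 were called, against 0.00694% of all tested genes (1 gene), and 0 of the 10 had an unadjusted p under 0.05, against 5.11% of all. The smallest adjusted p among the 10 was 0.996. The 95% confidence intervals of the fold change lay between 0.669-fold and 1.46-fold for the 8 members other than Marco and Timd4. For those 2 scarce transcripts they were wider, 0.506-fold to 2.26-fold for Marco and 0.586-fold to 1.68-fold for Timd4.

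**Figure D1:**
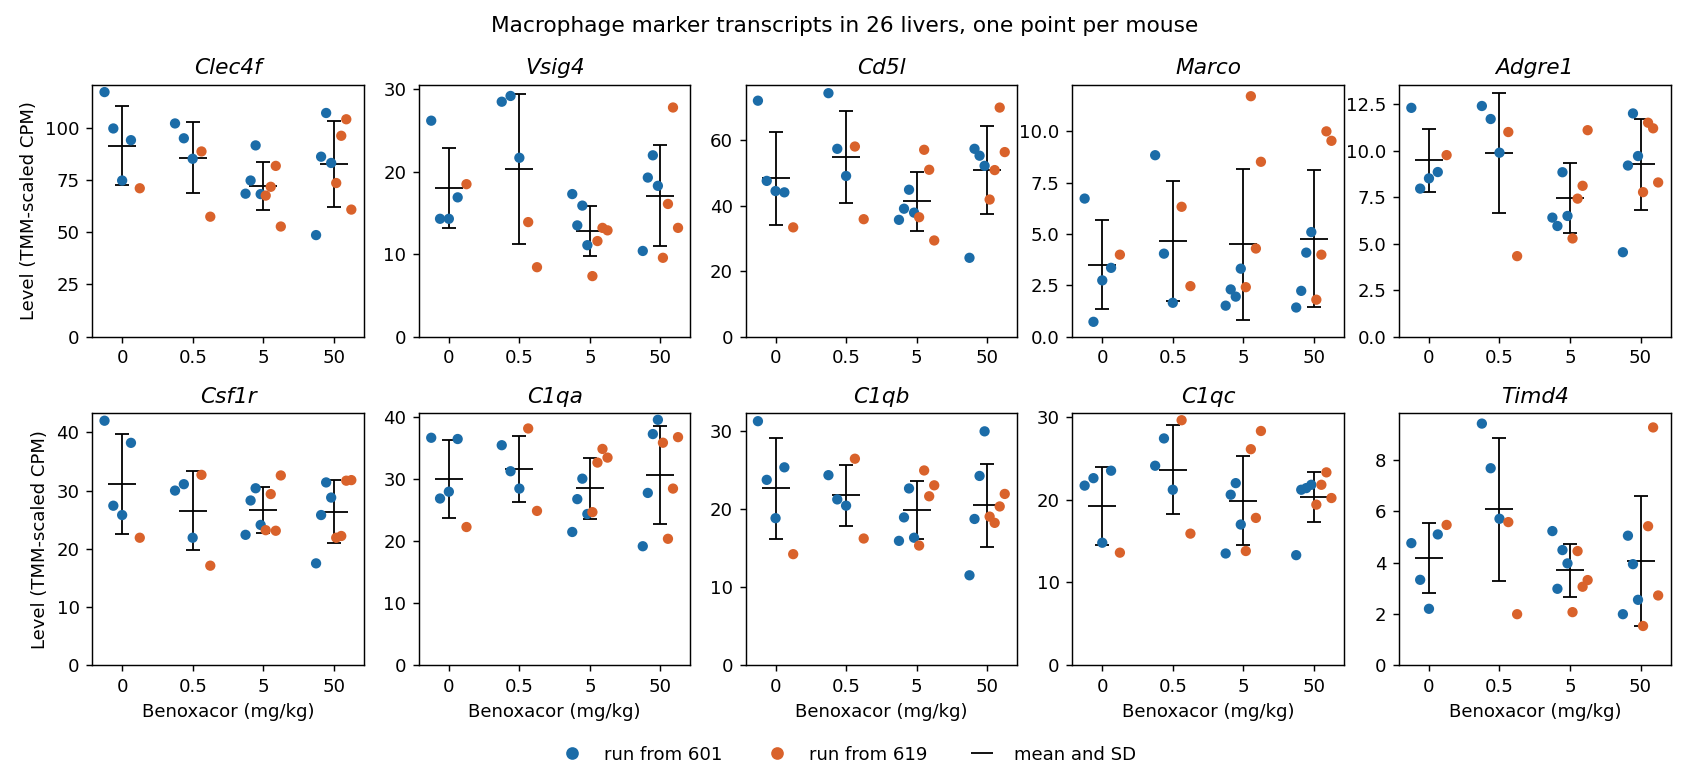
TMM-scaled CPM (vertical axes, linear and starting at 0) of each marker gene in each mouse by dose in mg/kg (horizontal axes), with points coloured by run and the mean and SD in black. The groups overlap in every panel, and Marco spreads most, from 0.724 to 11.7 CPM.

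Clec4f, the C-type lectin, was at 117, 99.6, 74.7, 94.0 and 71.0 CPM in the 5 undosed mice and at 102, 94.9, 85.1, 88.6 and 57.4 CPM at 0.5 mg/kg. At 5 mg/kg it ran from 52.7 to 91.5 CPM (median 70.1), and at 50 mg/kg from 48.6 to 107 CPM (median 84.6). The 4 groups overlapped, and both the lowest mouse and one of the highest received 50 mg/kg. Its log2 fold change was -0.09 (SE 0.17) at 50 against 0 mg/kg and -0.29 (SE 0.17) at 5 against 0 mg/kg, with adjusted p = 0.997 and 0.780 (edgeR).

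Timd4, the phosphatidylserine receptor, was at 4.76, 3.33, 2.20, 5.10 and 5.47 CPM in the undosed mice. At 0.5 mg/kg its values were 9.42, 7.68, 5.71, 5.58 and 1.99 CPM. The 4 upper mice of that dose lay above every undosed mouse and the fifth lay below them all. At 5 mg/kg Timd4 ran from 2.07 to 5.23 CPM (median 3.65), and at 50 mg/kg from 1.53 to 9.27 CPM (median 3.33). Its fold change at 0.5 against 0 mg/kg, 0.53 on the log2 scale (SE 0.39, edgeR adjusted p = 0.844), was the highest of the 10 in that comparison. It was 0.33 without replicate 1 of that dose and 0.06 (SE 0.46) without replicates 1 and 2, the highest mice of the group. Without replicate 5, the lowest mouse of the group, this fold change was 0.76. At 50 against 0 mg/kg it was -0.01 (SE 0.37).

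Vsig4, the complement receptor, was at 26.2, 14.3, 14.3, 16.9 and 18.5 CPM without benoxacor and at 28.5, 29.2, 21.7, 13.9 and 8.43 CPM at 0.5 mg/kg. At 5 mg/kg it ran from 7.35 to 17.3 CPM (median 13), and at 50 mg/kg from 9.57 to 27.8 CPM (median 17.2). The 5 mg/kg mice were the tightest group and the 0.5 mg/kg mice the widest, with overlap among all 4. Of the 10, Vsig4 came nearest to a difference among the doses (edgeR adjusted p = 0.872). Between 5 and 0.5 mg/kg it was the one member with an unadjusted p under 0.05 (-0.58 on the log2 scale, SE 0.25, edgeR adjusted p = 0.668), a level that 7.02% of all tested genes reached there. Without 0.5 mg/kg replicates 1 and 2 this value was -0.20 (SE 0.28).

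Cd5l, the secreted survival protein, was at 72.1, 47.6, 44.5, 44.1 and 33.4 CPM in the undosed mice and at 74.4, 57.4, 49.1, 58.1 and 35.9 CPM at 0.5 mg/kg. Its range was 29.4 to 57.1 CPM at 5 mg/kg (median 38.5) and 24.1 to 70.0 CPM at 50 mg/kg (median 53.7). The ranges overlapped, and 1 mouse at 50 mg/kg was the lowest of all 26. The log2 fold changes against 0 mg/kg were 0.19 (SE 0.23) at 0.5, -0.21 (SE 0.21) at 5 and 0.09 (SE 0.21) at 50 mg/kg, none past the test.

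Marco, the scavenger receptor, varied most. It was at 6.72, 0.724, 2.74, 3.35 and 3.99 CPM in the undosed mice and at 8.83, 4.04, 1.65, 6.32 and 2.46 CPM at 0.5 mg/kg. The 5 mg/kg mice ran from 1.51 to 11.7 CPM (median 2.86) and the 50 mg/kg mice from 1.42 to 9.99 CPM (median 4.04). High and low mice thus occurred at every dose, and the highest was 16.2 times the lowest. The log2 fold change at 50 against 0 mg/kg was 0.10 with an SE of 0.53. At 5 against 0 mg/kg it was -0.04, and it turned to 0.37 when the term for the run was left out and to 0.40 without 0 mg/kg replicate 1.

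Adgre1, which encodes F4/80, was at 12.3, 7.96, 8.51, 8.85 and 9.76 CPM in the undosed mice and at 12.4, 11.7, 9.89, 11 and 4.33 CPM at 0.5 mg/kg. It ran from 5.28 to 11.1 CPM at 5 mg/kg (median 6.96) and from 4.54 to 12 CPM at 50 mg/kg (median 9.45). As with Timd4, 4 mice at 0.5 mg/kg were on the high side and replicate 5 lay below every undosed mouse. The fold change was -0.35 on the log2 scale (SE 0.23, edgeR adjusted p = 0.782) at 5 against 0 mg/kg and -0.04 (SE 0.23) at 50 against 0 mg/kg.

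Csf1r, the growth factor receptor, was at 42.0, 27.4, 25.8, 38.2 and 21.9 CPM in the undosed mice and at 30.0, 31.1, 21.9, 32.7 and 17.1 CPM at 0.5 mg/kg. Its range was 22.4 to 32.6 CPM at 5 mg/kg (median 26.2) and 17.5 to 31.8 CPM at 50 mg/kg (median 27.3). The highest 2 of the 26 values were undosed mice, while the other 3 undosed mice lay lower, replicate 5 under every mouse at 5 mg/kg. Its fold change was negative by a like amount at all 3 doses, with log2 values of -0.21 at 0.5 (SE 0.20), -0.19 at 5 (SE 0.18) and -0.21 at 50 mg/kg (SE 0.18), each against the same 5 undosed mice. The edgeR adjusted p was 0.899, 0.830 and 0.996. Without undosed replicate 1 alone the 3 values were -0.09, -0.07 and -0.09, and without undosed replicate 5 alone -0.36, -0.33 and -0.36. Fitted in each run alone, the values were -0.30, -0.36 and -0.38 in the run from 601 and 0.21, 0.31 and 0.31 in the run from 619, where the single undosed mouse was replicate 5, and this difference was not tested.

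The highest mouse was 2.07 times the lowest for C1qa, 2.22 times for C1qc and 2.71 times for C1qb. C1qa was at 36.7, 26.9, 28.0, 36.5 and 22.3 CPM in the undosed mice, and from 24.9 to 38.2, 21.5 to 34.9 and 19.2 to 39.6 CPM at 0.5, 5 and 50 mg/kg. C1qb was at 31.2, 23.7, 18.8, 25.3 and 14.2 CPM without benoxacor, and from 16.2 to 26.4, 15.3 to 24.9 and 11.5 to 29.9 CPM at the rising doses. C1qc was at 21.7, 22.6, 14.8, 23.5 and 13.6 CPM, and from 15.9 to 29.6, 13.5 to 28.3 and 13.3 to 23.3 CPM. All dose groups overlapped for each chain. At 50 against 0 mg/kg the log2 fold changes were 0.02 (C1qa, SE 0.18), -0.13 (C1qb, SE 0.19) and 0.07 (C1qc, SE 0.19), each smaller than its SE.

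The lower doses gave no calls either. At 5 against 0 mg/kg, 9 of the 10 fold changes were negative (median -0.18, from -0.39 for Vsig4 to 0.03 for C1qc), beside a median of 0.01 over all tested genes. There 0 of the 10 were called, against 0% of all tested genes, and 0 had an unadjusted p under 0.05, against 6.18% of all. Without 5 mg/kg replicates 6 and 8 the fold change of C1qc also became negative (-0.13). At 0.5 against 0 mg/kg, 7 of the 10 were positive (median 0.12, all genes 0.00), with 0 called against 0% of all, and 0 at an unadjusted p under 0.05 against 6.99%. That group includes the 2 livers with high Saa1. Without them the log2 fold changes of Vsig4 (-0.22), Adgre1 (-0.22), Cd5l (-0.05), C1qa (-0.02) and Marco (-0.70) were negative instead, so that 8 of the 10 were negative (median -0.14). The comparisons share the 5 undosed mice, so their directions are not independent of each other.

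**Figure D2:**
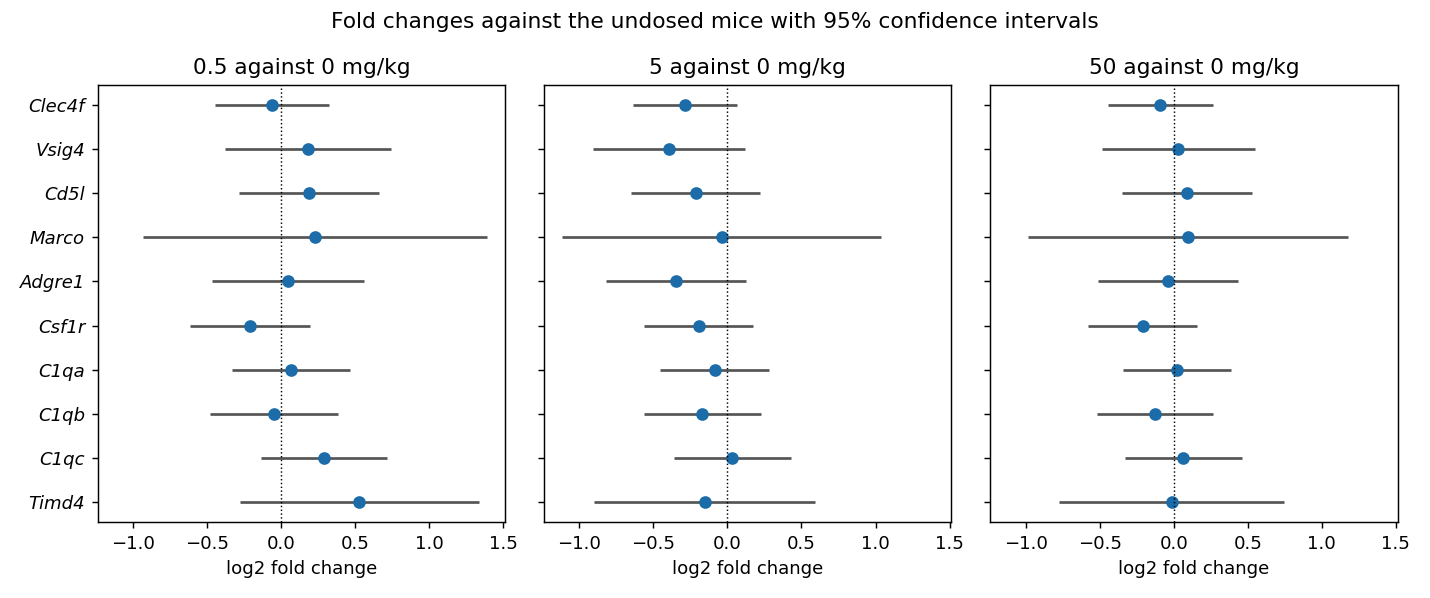
Log2 fold change (horizontal axes) of each marker gene (vertical axis) at 0.5, 5 and 50 mg/kg against 0 mg/kg, from edgeR, with bars for the 95% confidence interval. Every interval crosses 0, and those of Marco and Timd4 are the widest.

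Among the dosed groups, 9 of the 10 were higher at 50 than at 5 mg/kg (median 0.14), with 0 called against 0% of all tested genes and 0 at an unadjusted p under 0.05 against 4.85%. The largest of these values was that of Vsig4 (0.43 on the log2 scale, SE 0.22, edgeR adjusted p = 0.962). At 5 against 0.5 mg/kg, 9 of the 10 were negative (median -0.26), and at 50 against 0.5 mg/kg likewise 9 of the 10 (median -0.09), with 0 called against 0% in each. Without 0.5 mg/kg replicates 1 and 2, 8 of the 10 were negative in the first of these (median -0.12) and 7 of the 10 positive in the second (median 0.09). Without 5 mg/kg replicates 6 and 8 all 10 were negative at 5 against 0.5 mg/kg (median -0.44). At 50 against 0.5 mg/kg 0 of the 10 had an unadjusted p under 0.05, against 3.88% of all tested genes. The test for any difference among the 4 doses called 0 of the 10, against 0.00694% of all tested genes, and gave 0 an unadjusted p under 0.05, against 5.7%. A slope over the dose ranks called 0 of the 10, against 0.0139%, and gave 0 an unadjusted p under 0.05, against 4.26%, with slopes from -0.08 (Timd4) to 0.00 (Marco) per dose step. DESeq2 and limma-voom also called 0 of the 10 in each of these comparisons, with an adjusted p from DESeq2 for only 2 of the 10 at 0.5 against 0 mg/kg.

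The runs were compared next, since the doses were spread unevenly over them. Marco had a mean of 3.33 ± 2.19 CPM in the run from 601 (SD, n = 15) and of 5.91 ± 3.49 CPM in the run from 619 (n = 11). Its values were 0.724 to 8.83 CPM and 1.80 to 11.7 CPM, so the runs overlapped, and the difference was 0.87 on the log2 scale (SE 0.36, edgeR adjusted p = 0.515). Without 5 mg/kg replicates 6 and 8, which are in the run from 619 and had 11.7 and 8.51 CPM, it was 0.52 (SE 0.35, edgeR adjusted p = 0.844). Vsig4 went the other way, 18.6 ± 5.90 CPM in the run from 601 and 13.9 ± 5.64 CPM in that from 619 (-0.37 on the log2 scale, SE 0.18, edgeR adjusted p = 0.618). These were the 2 members with an unadjusted p under 0.05, a level reached by 7.98% of all tested genes. With adjustment 0 of the 10 were called, against 0.0902% of all tested genes (13 genes). Over the 10, 4 differences were positive and 6 negative, with a median of -0.04. Without 5 mg/kg replicates 6 and 8, 9 were negative (median -0.12).

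The dose comparisons were also fitted in each run alone. In the run from 601, with 4 mice in both groups, all 10 fold changes at 50 against 0 mg/kg were negative (median -0.12, from -0.38 for Csf1r to -0.04 for Vsig4). None passed, the smallest adjusted p by edgeR being 0.831. In the run from 619 the median was 0.38 and 7 of the 10 were positive, but that run had 1 undosed mouse. At 5 against 0 mg/kg, 9 of the 10 were negative in the run from 601 (median -0.36) and 6 of the 10 positive in the run from 619 (median 0.34, against the same undosed mouse). At 5 against 0.5 mg/kg all 10 were negative in the run from 601 (median -0.50), and 7 of the 10 in the run from 619 (median -0.03, 4 mice against 2). At 0.5 against 0 mg/kg, 6 and 7 of the 10 were positive, with a median of 0.19 in each run. Only the 5 and 50 mg/kg groups had 4 mice in each run, and there the test of a different dose effect in the 2 runs called 0 of the 10, against 0% of the 13418 genes tested, with 0 at an unadjusted p under 0.05 against 4.89%. The largest such difference was 0.82 for Timd4 (SE 0.62, edgeR adjusted p = 0.982). For Timd4 at 0.5 against 0 mg/kg, the run from 601 (3 mice against 4) gave 0.94 on the log2 scale (SE 0.32, edgeR adjusted p = 0.174), and the run from 619 (2 mice against 1) gave -0.51 (SE 0.84, edgeR adjusted p = 0.821). Between these doses the difference between the runs was not tested.

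In single mice the 10 markers summed to 153 CPM in the lowest liver, 50 mg/kg replicate 1, and to 371 CPM in the highest, 0 mg/kg replicate 1. Replicate 1 at 50 mg/kg was the lowest of all 26 mice for 5 members (Clec4f, Cd5l, C1qa, C1qb and C1qc), was among the lowest 3 for 9, and lay under the median of every one of the 10. Its library held 6775131 reads, close to the median. The undosed replicate 1 was the highest mouse for 3 members (Clec4f, Csf1r and C1qb) and above the median for all 10. Sums of the markers overlapped across doses, from 214 to 371 CPM at 0, 185 to 350 at 0.5, 198 to 277 at 5 and 153 to 336 at 50 mg/kg.

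**Figure D3:**
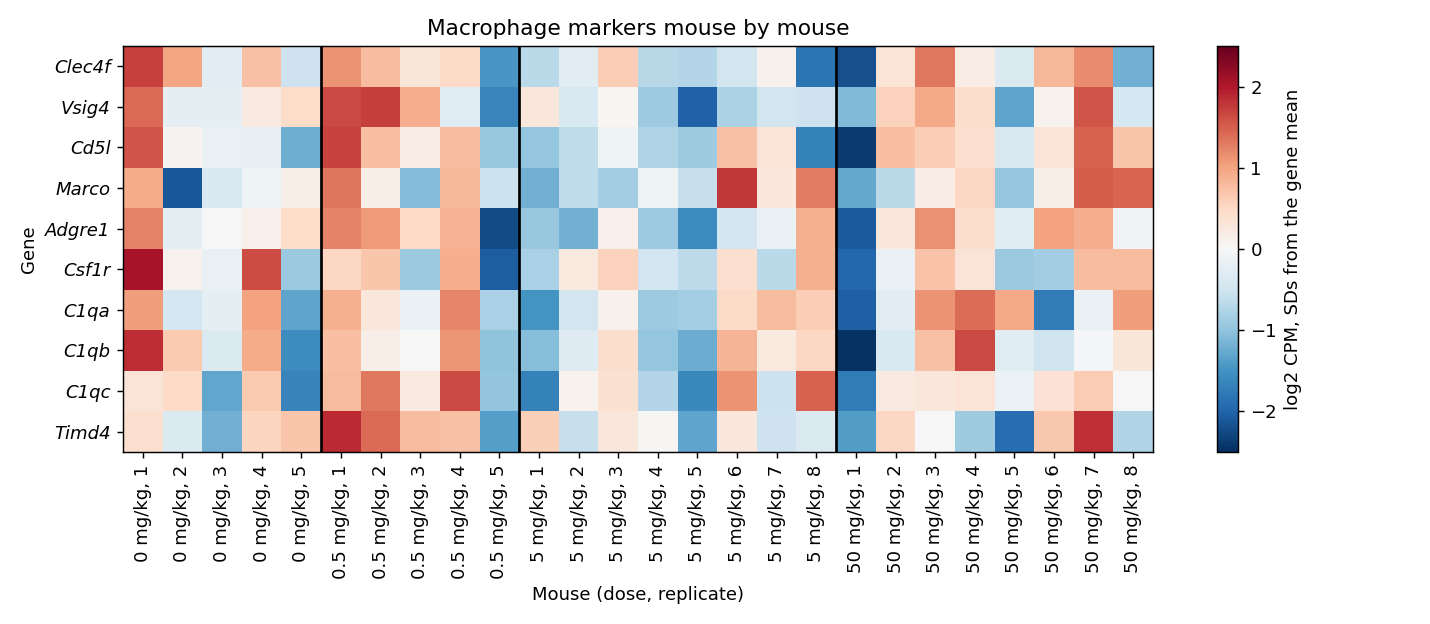
Standardised log2 CPM (colour, in SDs from the mean of each gene) of the 10 markers (rows) in each mouse (columns, ordered by dose and replicate, with lines between doses). Some columns are of 1 colour, such as 50 mg/kg replicate 1 (low in 10 of 10) and 0 mg/kg replicate 1 (high in 10 of 10). Others are mixed, such as 50 mg/kg replicate 2 (5 of 10 above the gene median).

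Other lists were set beside the mouse with the lowest markers. In 50 mg/kg replicate 1 the pan-macrophage and leukocyte list summed to 134 CPM, the second lowest of 26, and the acute phase list, made mainly by hepatocytes, to 6860 CPM, also the second lowest. The further Kupffer cell genes (635 CPM) and the lipid-associated macrophage genes (59.4 CPM) both had rank 4 from the lowest, and the neutrophil genes (2.70 CPM) rank 5. The hepatocyte list summed to 67400 CPM (rank 14 from the lowest) and the sinusoidal endothelial list to 441 CPM (rank 12). The same liver had the highest Csf1 of the 26 (30.2 CPM, against 7.12 to 23.6 CPM in the others) and the lowest Il34 (0.568 CPM). Il34 was scarce in every mouse, at most 3.64 CPM, and the next lowest mouse had 0.638 CPM. The low sum of 185 CPM in 0.5 mg/kg replicate 5 came with some low lists and some high ones. In that liver the pan-macrophage list (109 CPM), the endothelial list (341 CPM) and the stellate cell and fibroblast list (167 CPM) were each the lowest of 26. Its macrophage transcription factors summed to 303 CPM (rank 23 from the lowest) and its hepatocyte list to 92200 CPM (rank 22). Id3 alone made 121 CPM of that transcription factor sum. Both 0.5 mg/kg mice with high Saa1 lay above the median of all 10 markers, at sums of 350 and 316 CPM. The part of Saa1, or of what moves the other lists, in these marker levels was not tested.

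After the mean differences between doses and runs were taken out, the spread of Marco between mice was 0.91 (SD of residual log2 CPM), wider than 98.0% of all tested genes. Timd4 (0.65), Vsig4 (0.47), Adgre1 (0.42) and Cd5l (0.40) also exceeded the median of all tested genes (0.34), while Csf1r (0.32), C1qa (0.32), Clec4f (0.31), C1qb (0.35) and C1qc (0.35) were close to it. Counting error is larger for scarce transcripts, so each gene was also set beside the 500 genes nearest in level. There all 10 were in the wider part of the spread. Marco was at the 97.0th percentile, Timd4 at the 90.4th, Vsig4 at the 88.0th and Cd5l at the 87.4th. The C1q chains were at the 79.8th (C1qb), 77.6th (C1qc) and 73.9th (C1qa), Adgre1 at the 75.6th, Csf1r at the 72.9th and Clec4f at the 62.9th.

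The markers varied together. All 45 pairs had a positive Pearson's r over the 26 mice, computed on the residuals, with a median of 0.61 (from 0.03 to 0.87). By a 2-sided permutation test with 100000 resamples and Benjamini-Hochberg adjustment over the 45 pairs, 41 pairs passed by Pearson's r and 36 by Spearman's rho (median rho 0.55). Every r was positive within the run from 601 alone (median 0.75) and 43 of 45 were within the run from 619 (median 0.54). Some of this rests on few mice. With the 2 mice farthest from the median of the first gene left out of each pair, the median r was 0.48 and 27 pairs passed. Without 50 mg/kg replicate 1 alone 31 passed, and without the 0.5 mg/kg mice with high Saa1 40 passed. These correlations are between transcripts of the same libraries, which share their depth and their piece of tissue. The counts of pairs past the test have no share over pairs of other genes beside them.

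**Figure D4:**
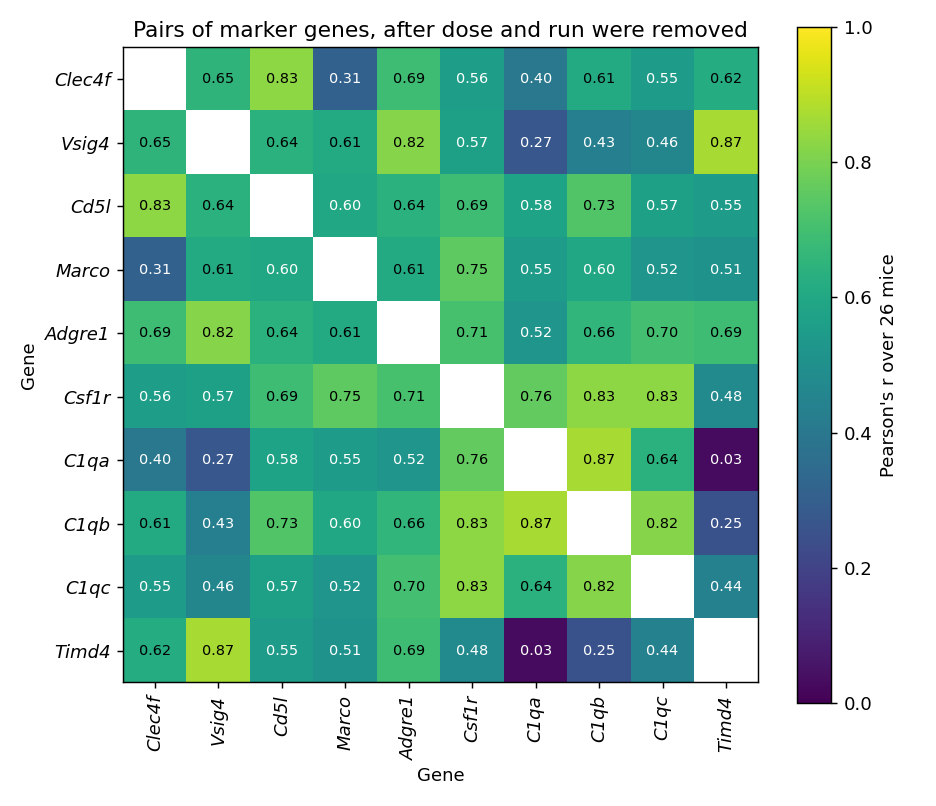
Pearson's r (colour and printed value) for each pair of the 10 marker genes (both axes) over 26 mice after dose and run were removed. The C1q chains and Csf1r correlate at 0.64 to 0.87, and C1qa with Timd4 at 0.03.

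The pairs were not equally close. The neighbouring genes C1qa and C1qb had r = 0.87 (rho 0.89, adjusted permutation p = 6.43e-05), and the C1q chains together with Csf1r gave a median of 0.82 over 6 pairs (0.64 to 0.87). Vsig4, Timd4 and Adgre1 gave 0.69 to 0.87 over 3 pairs, led by Vsig4 with Timd4 (r = 0.87, rho 0.78, adjusted permutation p = 6.43e-05), and r = 0.78 for that pair without its 2 farthest mice. Between these sets the 12 pairs had a median of 0.47 (0.03 to 0.71). These sets were formed after the values were seen and carry no test. Clec4f went most closely with Cd5l (r = 0.83, rho 0.76, adjusted permutation p = 6.43e-05) and little with Marco (r = 0.31, rho 0.32, adjusted permutation p = 0.124). The other 3 pairs that did not pass were C1qa with Timd4 (r = 0.03), C1qb with Timd4 (0.25) and C1qa with Vsig4 (0.27). An unadjusted p of 1e-05 is the smallest this number of resamples can give.

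Other genes were ordered by how closely they followed the mean of the markers over the 26 mice, as a description without a test. The 10 closest non-members with a mean of at least 1 CPM were Tyrobp (r = 0.82), Folr2 (0.82), Ctss (0.80), Itgal (0.80), Fcgr4 (0.79), Ifi44 (0.78), Hk3 (0.78), Serpina3g (0.78), Rsad2 (0.78) and Pld4 (0.78). Tyrobp encodes an adaptor of activating myeloid receptors, Folr2 a folate receptor of resident macrophages, Ctss the lysosomal protease cathepsin S, Itgal an integrin chain of leukocytes and Fcgr4 an antibody receptor. Ifi44 and Rsad2 are interferon-stimulated genes. Without the 2 mice farthest from the median these values were 0.63 to 0.77, and within the runs 0.70 to 0.89. Over all tested genes the median r was -0.02, with 5% of genes below -0.43 and 5% above 0.43.

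**Figure D5:**
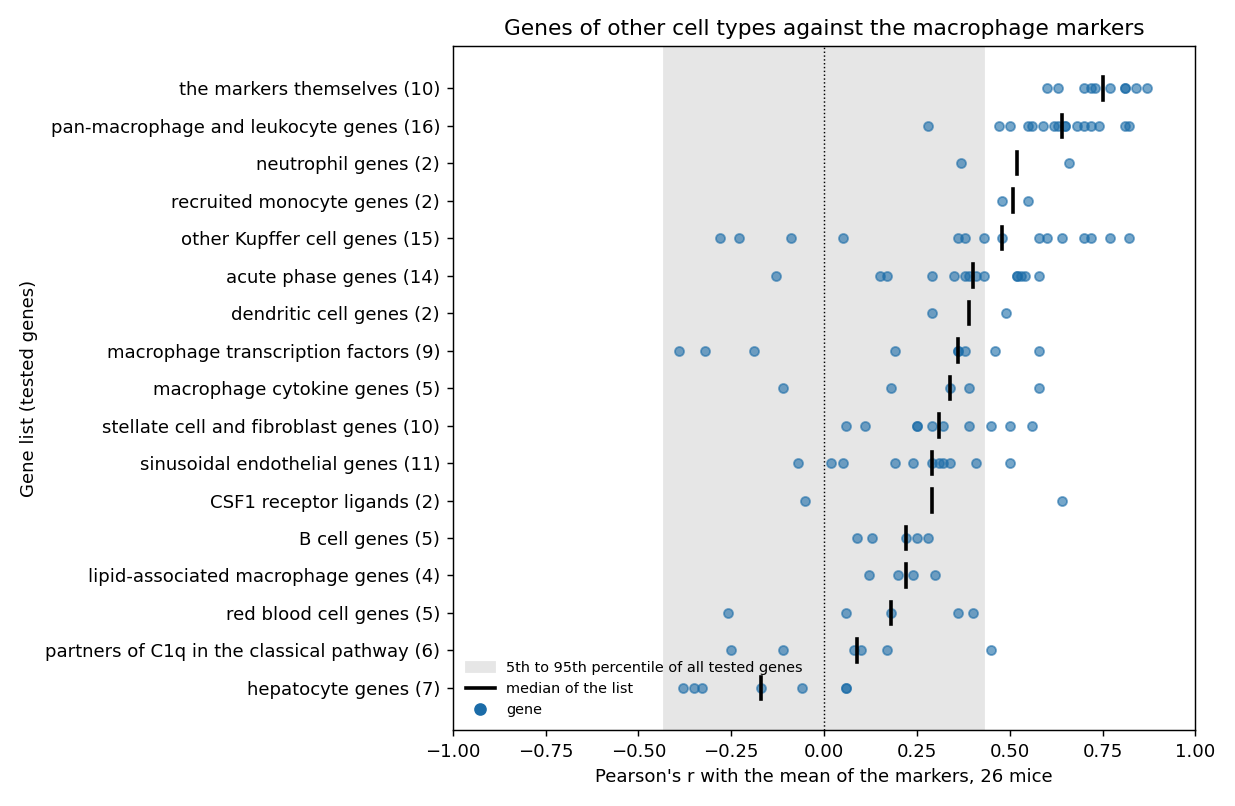
Pearson's r over 26 mice between each gene (points) and the mean of the 10 markers (horizontal axis), by gene list (vertical axis), with the median of each list in black and the 5th to 95th percentile of all tested genes in grey. Each marker itself is set against the mean of the other markers, and lists with only 1 tested gene are left out. The pan-macrophage list has a median of 0.64 and the hepatocyte list one of -0.17.

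By list, the 16 tested pan-macrophage and leukocyte genes all had a positive r (median 0.64, from 0.28 for Cd68 to 0.82 for Tyrobp). Of 15 further Kupffer cell genes 12 were positive (median 0.48). Folr2 (0.82), the haemoglobin scavenger receptor gene Cd163 (0.77) and the receptor kinase gene Axl (0.72) were among the closest, whereas the iron exporter gene Slc40a1 (-0.23), Hpgd (-0.28) and Mertk (-0.09) were negative. Among 9 transcription factors of macrophages, Spi1, which encodes PU.1, was highest (0.58), and Id3 (-0.39) and Nr1h3, the LXR-alpha gene (-0.19), were among those with a negative r. Il34, a ligand of the Csf1r product, followed the markers at 0.64 and the other ligand gene, Csf1, did not (-0.05), though both were positive without 50 mg/kg replicate 1. The value for Il34 rests on few reads, since no mouse had more than 3.64 CPM. Several lists of other cells were positive too. The 2 neutrophil genes had a median of 0.52 (Csf3r 0.66), the 2 recruited monocyte genes 0.51, the bile duct gene Sox9 0.50, Cd4 0.41 and the 2 dendritic cell genes 0.39. Without 0.5 mg/kg replicates 1 and 2, the neutrophil and recruited monocyte medians were both 0.42. The dendritic cell median was then 0.29 over 3 genes and that of the bile duct genes 0.25 over 2 genes. Without 50 mg/kg replicate 1, the 1 tested T and NK cell gene was at 0.18 and the 1 tested bile duct gene at 0.69. Of 14 acute phase genes 13 were positive (median 0.40, and 0.34 without the 0.5 mg/kg mice with high Saa1). The macrophage cytokine genes (median 0.34), stellate cell genes (0.31), sinusoidal endothelial genes (0.29) and B cell genes (0.22) were lower. Without 5 mg/kg replicates 6 and 8 these medians were 0.28, 0.28, 0.18 and, over 3 B cell genes, 0.00. The B cell median was 0.33 without 50 mg/kg replicate 1. Without 0.5 mg/kg replicates 1 and 2 the cytokine, stellate, endothelial and B cell medians were 0.23, 0.24, 0.24 and 0.18. Hepatocyte genes had a median of -0.17, and the partners of C1q in the classical pathway, which hepatocytes mostly make, one of 0.09. The median of the C1q partners was -0.02 without 5 mg/kg replicates 6 and 8, and 0.12 without 0.5 mg/kg replicates 1 and 2.

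The other genes of macrophage biology were likewise without a call in any dose comparison. Of the 15 further Kupffer cell genes at 50 against 0 mg/kg, 7 fold changes were positive and 8 negative (median 0.00). At 0.5 against 0 mg/kg Hmox1, which breaks down haem, had a log2 fold change of 0.82 (16.2 ± 7.81 CPM, SD, n = 5, against 8.94 ± 2.09, n = 5) with an edgeR adjusted p of 0.609, and Il18bp, a decoy for interleukin 18, one of 0.57 (adjusted p = 0.647). Without replicates 1 and 2 of that dose, which had 26.1 and 19.4 CPM of Hmox1, these were 0.18 (SE 0.36) and 0.33 (SE 0.29). At 5 against 0.5 mg/kg all 15 were negative (median -0.25), beside 9 of the 10 markers, with 0 called against 0% of all tested genes, and 13 of the 15 were negative without those 2 mice (median -0.11). For the macrophage factors, Id3 was at 0.78 (edgeR adjusted p = 0.670) and Spic, the factor of iron-recycling macrophages, at 0.70 (0.752) for 0.5 against 0 mg/kg, and at -0.02 and 0.34 for 50 against 0 mg/kg. Without the same 2 mice Id3 was at 0.86 and Spic at 0.23 for 0.5 against 0 mg/kg. Spic rests on few reads, with 0.459 to 3.77 CPM over the 26 mice.

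Csf1 gave log2 fold changes of 0.49 at 0.5 and 0.50 at 50 against 0 mg/kg, with edgeR adjusted p = 0.772 and 0.975. The first was -0.02 without 0.5 mg/kg replicates 1 and 2, and the second 0.27 without 50 mg/kg replicate 1. Its mean of 14.3 ± 6.67 CPM (SD, n = 8) at 50 mg/kg includes the single value of 30.2 CPM named above, and the other 7 mice there had 9.53 to 14.9 CPM. All 6 partners of C1q were positive at 50 against 0 mg/kg with a median of 0.09, among them the protease gene C1s1 (0.16, 573 ± 53.6 CPM against 519 ± 33.6) and C4b (0.07). Of the pan-macrophage and leukocyte genes, 14 of 16 were positive at 0.5 against 0 mg/kg (median 0.28), but 14 of 16 were negative there without 0.5 mg/kg replicates 1 and 2 (median -0.20), whose sums of that list were 362 and 321 CPM. At 50 against 0 mg/kg, 10 of 16 were negative (median -0.05). The receptor for bacterial endotoxin, Cd14, was at -0.90 at 50 against 0 mg/kg (1.18 ± 0.356 CPM, n = 8, against 2.02 ± 0.390, n = 5, edgeR adjusted p = 0.883). Cd14 rests on few reads, with 0.265 to 3.22 CPM over the 26 mice.

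Many markers of other white blood cells were scarce. The filter on low counts was passed by 5 of 6 B cell genes, 2 of 7 dendritic cell genes, 2 of 7 recruited monocyte genes (Ccr2 and Plac8), 2 of 9 neutrophil genes (S100a9 and Csf3r) and 1 of 9 T and NK cell genes (Cd4). Ly6g, which defines neutrophils, had a median of 0.00 CPM. Summed over the neutrophil list, the 0.5 mg/kg mice ranged from 1.99 to 46.1 CPM and the undosed mice from 4.12 to 25.6 CPM. The highest sums of the neutrophil (46.1 CPM), recruited monocyte (36.9 CPM) and macrophage cytokine lists (254 CPM) were all in 0.5 mg/kg replicate 1, one of the livers with high Saa1. Cxcl1 alone made 211 CPM of the cytokine sum in this liver, and 5 of the 13 cytokine genes passed the filter on low counts. In that liver Timd4 (9.42 CPM), Cd5l (74.4 CPM) and Adgre1 (12.4 CPM) were each the highest of the 26.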

How the data were processed

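Per the submitters' processing notes, the authors used bcl2fastq, featureCounts and the mm10 build. What the authors deposited are unnormalised gene counts. The aligner, annotation, strand setting and versions are not given in the sources used here. The 26 single files equalled the combined table. Groups follow the dose label. The members and all gene lists (19 lists, 161 genes) were chosen with earlier results of these data known.

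In edgeR 4.0.16 (R 4.3.3), counts were filtered by filterByExpr (14415 genes with 99.7% of reads), scaled by TMM and modelled on dose and run in all 26 mice with a robust quasi-likelihood and an adjusted p of 0.05. SEs derive from the F statistic. The procedure was tested on simulated counts. Correlations use residual log2 CPM (prior count 2) after dose and run. Alternatives were DESeq2 1.42.0, limma-voom (limma 3.58.1), other scaling, filters and mice, and each mouse left out. Leaving 0.5 mg/kg replicates 1 and 2, 5 mg/kg replicates 6 and 8, or 50 mg/kg replicate 1 out of the gene lists was chosen after seeing the data.

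Named genes outside the members were the 10 closest in pattern and up to 2 per list by smallest p over the doses. Genes named from the correlations by list, and Ly6g, were chosen after their values were seen. The labels do not say whether mice of a group shared a cage or litter, so it is not known whether the mice were independent. The p-values treat each mouse as independent and measure the spread between these mice.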

Additional observations from a re-analysis of the deposited data

Results flagged for a closer look

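C1qc, one of the 3 chains of C1q, was at 13.3 CPM in 50 mg/kg replicate 1, far below the other 7 mice at that dose, of which the nearest had 19.4 CPM. The gap took 0.609 of the range of the 8 mice, above Dixon's 95% critical value of 0.526. This was 1 of 40 groups examined (10 genes at 4 doses), and chance alone marks about 1 in 20. The same liver was the lowest of the 26 for C1qa, C1qb, Cd5l and Clec4f as well.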

How the results depend on the processing

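In 334 alternatives of the counts of members called, the count stayed at 0, and the smallest adjusted p was 0.198 (the run comparison without 50 mg/kg replicate 7). DESeq2 gave an adjusted p to only 2 of the 10 members at 0.5 against 0 mg/kg. No member's call changed, so the settings moved fold changes alone, of which 24 of 430 turned sign, and 112 of 1300 with 1 mouse left out. The cause was not tested. The 41 pairs past the test became 14 in the run from 619 alone (11 mice) and 27 with each pair's 2 farthest mice left out, both chosen after seeing the data, and 31 to 42 with 1 mouse left out.

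Without 0.5 mg/kg replicates 1 and 2, log2 fold changes at 0.5 against 0 mg/kg were -0.22 for Adgre1, -0.0167 for C1qa, -0.0504 for Cd5l, -0.70 for Marco and -0.22 for Vsig4. The same setting gave -0.000222 for C1qa, -0.0207 for Marco and -0.0105 for Vsig4 at 50 against 0 mg/kg, 0.0376 for Cd5l and 0.0314 for Timd4 between the runs, and 0.0107 for the slope of Cd5l. Without 5 mg/kg replicates 6 and 8 the values were -0.13 for C1qc at 5 against 0 mg/kg, and -0.0841 for Adgre1, -0.0274 for C1qa and -0.11 for C1qc between the runs. limma-voom gave -0.0452 for Adgre1 at 0.5 and 0.13 for Marco at 5 against 0 mg/kg, and -0.0228 for Adgre1 between the runs. Without the run term Marco was at 0.37 at 5 and Vsig4 at -0.0791 at 50 against 0 mg/kg. With only the mice of the 2 doses C1qb was at 0.00515 at 0.5 and Vsig4 at -0.0704 at 50 against 0 mg/kg. The slope of Cd5l was 0.000569 over log2 dose, and that of Marco -0.00775 by DESeq2.

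With each mouse left out in turn, values that changed sign had these ranges. At 0.5 against 0 mg/kg they were -0.0471 to 0.24 for Adgre1, -0.0823 to 0.15 for C1qa, -0.23 to 0.0868 for C1qb, -0.15 to 0.0341 for Clec4f and -0.32 to 0.69 for Marco. At 5 against 0 mg/kg they were -0.12 to 0.12 for C1qc, -0.27 to 0.40 for Marco and -0.31 to 0.0281 for Timd4. At 50 against 0 mg/kg they were -0.12 to 0.0891 for Adgre1, -0.13 to 0.11 for C1qa, -0.31 to 0.00858 for C1qb, -0.10 to 0.15 for C1qc, -0.0764 to 0.27 for Cd5l, -0.18 to 0.026 for Clec4f, -0.13 to 0.54 for Marco, -0.29 to 0.16 for Timd4 and -0.13 to 0.17 for Vsig4. Between the runs they were -0.0642 to 0.12 for Adgre1, -0.0249 to 0.11 for C1qa, -0.12 to 0.0432 for C1qb, -0.0252 to 0.13 for C1qc, -0.11 to 0.0628 for Cd5l, -0.13 to 0.0145 for Csf1r and -0.29 to 0.0513 for Timd4. For the slope over dose ranks they were -0.0416 to 0.0228 for C1qa, -0.0622 to 0.0149 for C1qc, -0.0449 to 0.0378 for Cd5l, -0.055 to 0.0999 for Marco and -0.0907 to 0.00111 for Vsig4. No paired analysis was possible because each label carries its own mouse number and replicate numbers only follow the order of deposition.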

Other observations

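Lists of neighbouring cell types gave these values beside the macrophage markers, with 0 genes called in any dose comparison by edgeR. Acute phase genes, made by hepatocytes under inflammatory signals, had 14 of 14 positive fold changes at 0.5 against 0 mg/kg (median 1.17, 9 at an unadjusted p under 0.05, against 6.99% of all tested genes). Without 0.5 mg/kg replicates 1 and 2 this was 11 of 14 (median 0.18, 2 at an unadjusted p under 0.05, against 11% of all). Of the 14, 1 gene, Serpina3m, had a negative correlation with the markers over mice (-0.13). Of 11 sinusoidal endothelial genes, 8 were negative at 0.5 against 0 mg/kg (median -0.12, and 10 without those 2 mice, median -0.31), among them Eng at -0.32 (47.2 ± 4.76 CPM, n = 5, against 59.5 ± 5.63, n = 5, SD, adjusted p = 0.499). Lipid-associated macrophage genes, of which 4 of 6 passed the filter on low counts, had a median of -0.34 at 50 against 0 mg/kg and of 0.22 for their correlation with the markers. Stellate cell and fibroblast genes had a median of -0.07, red blood cell genes of -0.09 and B cell genes of -0.33 at 50 against 0 mg/kg.

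At the far end of the same order, genes that were high in the livers with low markers included Mapk14, which encodes the stress kinase p38 alpha (r = -0.71, with -0.81 and -0.58 in the runs from 601 and 619), and Slc2a2, the glucose transporter of hepatocytes (-0.68, with -0.72 and -0.65). They were picked after their values were seen and are given as a description.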
